A study of Rattus norvegicus with 35 samples.

Results

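The genes described here are those of the unfolded protein response and of the transcription factor ATF4, named as a list of 38 genes for which probe sets were looked up in the value table. The list named 5 sensors and factors, 16 chaperones and genes of protein quality control, and 17 targets of ATF4 and CHOP. Of the 38 genes 37 were measured, by 50 probe sets, and all 37 were among the 10490 genes tested out of 14217 genes on the array. Ern1, which encodes the sensor IRE1, had no probe set naming it alone and has no value here. No measured value chose the members, but the list was drawn up with earlier results of these data known.

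When unfolded proteins build up in the endoplasmic reticulum, the membrane sensors PERK, IRE1 and ATF6 are activated. ATF6 and the spliced form of XBP1 raise the chaperones that fold proteins and the machinery that degrades misfolded ones. PERK phosphorylates the initiation factor eIF2, which slows translation in general but favours that of ATF4, and ATF4 in turn raises genes of amino acid supply and the stress factor CHOP, encoded by Ddit3. Other eIF2 kinases answer to amino acid shortage, haem and viral RNA, so the ATF4 branch can be engaged without the chaperone branch. Hepatocytes secrete most plasma proteins and have a large endoplasmic reticulum, which also houses the cytochromes P450 that metabolize drugs.

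The cells were primary rat hepatocytes in culture, from the supplier named in the series title, exposed through the medium for 72 h. There were 12 groups: DMSO at 0.1% as the control, myclobutanil, propiconazole and triadimefon each at 10, 30 and 100 uM, phenobarbital at 200 uM and PCN at 30 uM, the last 2 being positive controls. Array titles start with Rs256, Rs293 or Rs304, called codes here, and a group held 1 array of each code, 3 in all. PCN had no Rs256 array and held 2. The series calls the arrays biological replicates, but the labels say neither what the codes mark nor the strain, sex or number of animals, so p-values measure the spread between these cultures, which may be technical. Whether the treated cultures also received DMSO is not stated.

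RNA was measured on Affymetrix Rat Genome 230 2.0 arrays, and the deposited score lies on a log-like scale whose base is not stated. Levels and differences below are in units of that score after quantile normalization, called units here, and are not folds. They compare arrays for 1 gene, and levels of different genes are not comparable. A gene was called, and is said to have risen or fallen, when its limma p, adjusted by the method of Benjamini and Hochberg over all 10490 genes of that comparison, lay below 0.05. A second fit added the code as a block, because arrays of the same code deviated from their group means together, and its adjusted p is given where it changes a call. All treatments were compared with the same 3 DMSO arrays, so the comparisons are not independent of each other.

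All 11 measured hepatocyte markers of a list of 12 lay above the array's median on every array. Their summed level ran from 36.4 to 38.0 in DMSO, 35.5 to 37.4 in myclobutanil, 35.4 to 36.8 in propiconazole and 35.3 to 37.4 in triadimefon at 100 uM. Ahsg, a secreted plasma protein, fell with propiconazole by 0.33 and with triadimefon by 0.24, and Arg1, the urea cycle arginase, fell with propiconazole by 0.45. The macrophage genes Cd163, Adgre1, Ptprc and C1qa, the endothelial genes Pecam1, Kdr, Stab2, Lyve1, Vwf and Tek, the stellate cell genes Lrat and Lum and the cholangiocyte gene Spp1 were never above an array's median. In DMSO and in propiconazole at 100 uM the summed levels ran from -0.07 to 1.30 and from 0.35 to 1.42 for 9 macrophage genes, from -1.80 to -1.07 and from -1.63 to -0.45 for 7 endothelial genes, from -1.01 to 0.59 and from -1.39 to -0.35 for 10 stellate cell genes, and from 1.50 to 2.75 and from 1.64 to 2.00 for 6 cholangiocyte genes. A single macrophage and lysosome gene, Cd68, rose with propiconazole by 0.80. The difference between the 3 prime and 5 prime probe sets of Actb, a measure of RNA integrity, changed by -0.12 with propiconazole, -0.04 with myclobutanil and 0.09 with triadimefon at 100 uM. The exact permutation p of these was 0.1, 0.7 and 0.4, and 0.1 is the smallest that 3 arrays against 3 allow. The same difference for Gapdh changed by -0.002 with propiconazole, 0.01 with myclobutanil and 0.07 with triadimefon. The smallest exact permutation p among these was 0.2, with triadimefon. The part of these measures in the results below was not tested.

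At 100 uM, propiconazole raised 5 of the 37 members and lowered 0 in the unblocked fit, where 6.37% of all genes were called higher and 5.6% lower. The 5 were Ddit3, the chaperone complex member Sdf2l1, the amino acid transporter subunit Slc3a2, the pseudokinase Trib3 and the stress protein Sesn2, 4 of them ATF4 and CHOP targets and 1 a chaperone gene. With the block 17 members rose, against 15.7% of all genes, and 2 fell, against 13.6%. Those 17 were 13 of the 17 ATF4 and CHOP targets and 4 of the 16 chaperone genes, 1 of which, Canx, had a second probe set called lower. The 2 that fell, Hsp90b1 and Herpud1, belong to the 16 chaperone and quality control genes. Neither 2 of 37 members nor 2 of these 16 is above the 13.6% of all genes called lower. In bulk RNA fewer cells of a type and less RNA per cell cannot be told apart.

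Myclobutanil and triadimefon at 100 uM gave 0 calls among the members in the unblocked limma fit, where 1.21% and 1.83% of all genes were called in either direction, and each had 8 members at an unadjusted p under 0.05, as did 10.3% and 12.5% of all genes. With the block myclobutanil raised 10 members, against 5.05% of all genes, and lowered 0, against 4.87%. Triadimefon raised 7, against 6.16%, and lowered 1, against 5.65%. Sdf2l1, Ddit3, Ppp1r15a, Vldlr and Slc3a2 rose with each of the 3 triazoles in the blocked fits. These comparisons share the same DMSO arrays, and the share of all genes that rose in all 3 was not counted.

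The members were then described by class. The 17 ATF4 and CHOP targets had a median difference from DMSO of 0.16 units with myclobutanil, 0.23 with propiconazole and 0.18 with triadimefon at 100 uM, and 15, 16 and 15 of them lay above 0. The 16 chaperone genes had medians of 0.08, -0.00 and 0.04, and 14, 8 and 10 of them lay above 0. The median over all tested genes was 0.01 in each comparison. On the values as deposited the ATF4 and CHOP medians were 0.18, 0.23 and 0.27 and the chaperone medians 0.13, 0.00 and 0.13, in the same order of compounds. With myclobutanil the gap between the classes was thus smaller on that scale, and with triadimefon both medians were larger. Within each code the ATF4 and CHOP median with propiconazole was 0.27 in Rs256, 0.31 in Rs293 and 0.26 in Rs304, while the chaperone median was 0.11, -0.05 and -0.09. The difference between the classes was not tested.

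**Figure D1:**
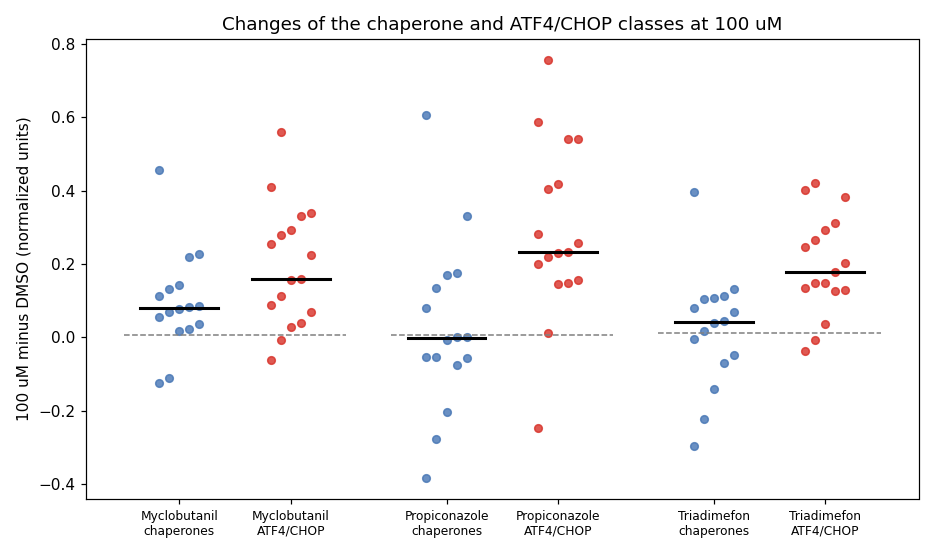
Difference from DMSO at 100 uM for each chaperone gene (blue points) and ATF4 or CHOP target (red points), in normalized units by compound. Black lines are class medians and dashed lines the median of all tested genes. ATF4 and CHOP targets have medians of 0.16 to 0.23 with the 3 triazoles, and chaperone genes have medians of -0.00 to 0.08.

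Ddit3 encodes CHOP, a transcription factor that ATF4 raises and that promotes cell death under lasting stress. Its level in DMSO was 0.78, 0.57 and 0.45 in Rs256, Rs293 and Rs304, and in propiconazole at 100 uM it was 1.23, 1.39 and 1.46. Every propiconazole array lay above every DMSO array, and the code with the highest control level had the smallest difference. Within codes the difference was 0.44 in Rs256, 0.82 in Rs293 and larger still in Rs304. The rise was 0.76 (SE 0.100, n = 3 and 3, adjusted p = 1.34e-05), and it was called in all 10 alternatives run for it, at 0.64 to 0.90. Ddit3 has 1 probe set, above the median on all 35 arrays. The alternatives that change the filter or average probe sets therefore left its values unchanged. In myclobutanil at 100 uM the arrays read 0.96, 0.77 and 1.07, a range that overlapped DMSO, and in triadimefon 0.91, 0.84 and 1.01, a range that did not. The differences of 0.33 and 0.31 were called only with the block (adjusted p = 0.132 without and 0.0108 with it for myclobutanil, 0.118 and 0.013 for triadimefon).

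Ddit3 stayed near the control at every lower dose. Its group mean was 0.60 (SD 0.17, n = 3) in DMSO, 0.66, 0.65 and 0.64 at 10 uM of myclobutanil, propiconazole and triadimefon, and 0.70, 0.57 and 0.67 at 30 uM. Phenobarbital gave 0.63 (SD 0.09, n = 3) and PCN 0.74 (SD 0.06, n = 2). Neighbours in this order differed by less than the SD of the DMSO arrays, up to the gap between these groups and the 3 groups at 100 uM, where the means were 0.92 for triadimefon, 0.93 for myclobutanil and 1.36 for propiconazole. The step from 30 to 100 uM of propiconazole held all of its change.

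**Figure D2:**
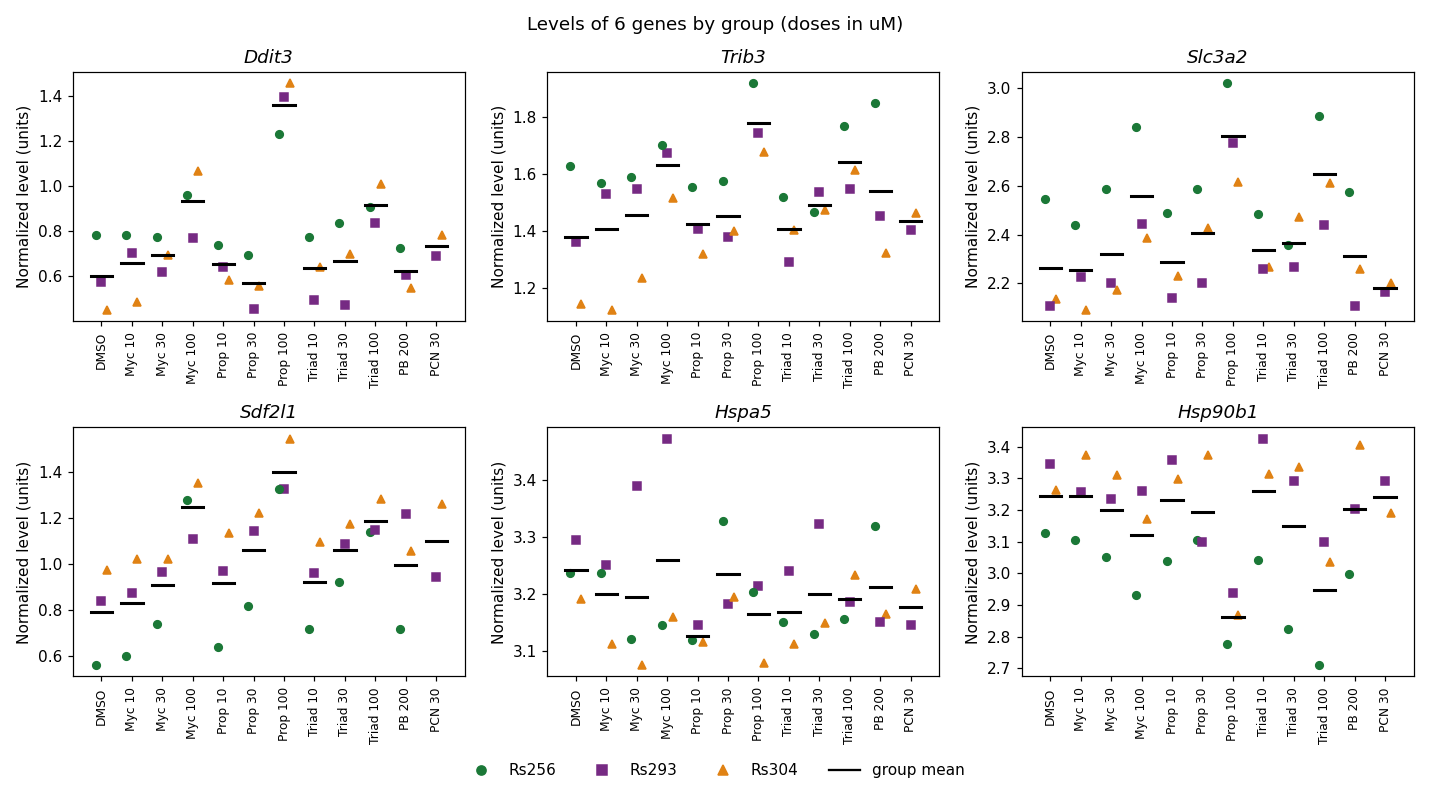
Normalized level (units) of Ddit3, Trib3, Slc3a2, Sdf2l1, Hspa5 and Hsp90b1 on each array in the 12 groups, with 1 symbol per code and group means as black lines; the axes do not start at 0. Ddit3 reads 1.23 to 1.46 in propiconazole at 100 uM and 0.45 to 0.78 in DMSO.

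Trib3 is a pseudokinase that CHOP and ATF4 raise and that feeds back on them. It read 1.63, 1.36 and 1.14 in DMSO and 1.92, 1.74 and 1.68 in propiconazole at 100 uM. All 3 propiconazole arrays lay above all DMSO arrays, by little for the nearest pair, since the Rs256 control was high. The rise was 0.40 (SE 0.130, adjusted p = 0.0411), and its other 2 probe sets gave 0.40 (adjusted p = 0.113) and 0.46 (adjusted p = 0.0269) when each probe set was tested as a feature. Triadimefon gave 0.27 (adjusted p = 0.401, and 0.0376 with the block).

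Ppp1r15a encodes the phosphatase subunit GADD34, which removes the phosphate from eIF2 and restarts translation. It read 1.23, 0.89 and 0.99 in DMSO and 1.78, 1.23 and 1.35 in propiconazole at 100 uM. The lowest propiconazole array lay just above the highest DMSO array. The difference of 0.42 was called with the block (adjusted p = 0.0615 without and 0.00138 with it), as were 0.34 with myclobutanil (0.0212 with it) and 0.40 with triadimefon (0.00546 with it).

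Sesn2, a sestrin that restrains the growth kinase mTORC1, read 1.22, 1.02 and 1.10 in DMSO and 1.48, 1.33 and 1.21 in propiconazole at 100 uM. The groups overlapped, but each code was higher with propiconazole than in its own control. The rise was 0.23 (SE 0.066, adjusted p = 0.0217). Ddit4, another inhibitor of mTORC1, stood at 0.14, with an adjusted p = 0.562 without the block and 0.0457 with it.

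Among the genes of the same class that were not called in either fit was Chac1, which degrades glutathione and is a strong target of the ATF4, ATF3 and CHOP chain. It read 1.46, 1.37 and 1.34 in DMSO and 1.33, 1.08 and 1.01 in propiconazole at 100 uM. All 3 propiconazole arrays lay below all DMSO arrays, which was true of 12.3% of all genes. The difference was -0.25, opposite in sign to that of Ddit3. Chac1 also lay wholly below DMSO at 10 uM of propiconazole and of triadimefon, so this position was not confined to the highest dose. Atf3, a stress factor of the same chain, read 0.93, 0.91 and 1.06 in DMSO and 1.66, 0.86 and 1.17 in propiconazole, and 1.54, 0.90 and 1.20 in triadimefon. Only its Rs256 arrays were clearly higher, and the difference of 0.26 with propiconazole was not called (adjusted p = 0.317). Nupr1, a stress-induced chromatin protein, differed between codes more than between treatments, with 3.50, 3.05 and 2.77 in DMSO and 3.56, 3.03 and 3.17 in propiconazole.

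Genes of amino acid transport and synthesis made up the rest of the ATF4 targets. Slc3a2 is the heavy chain that pairs with several amino acid transporters at the cell surface, and Slc7a11 is the cystine carrier that pairs with it. Slc3a2 read 2.54, 2.11 and 2.14 in DMSO and 3.02, 2.78 and 2.62 in propiconazole at 100 uM. The groups did not overlap, and the differences within codes were 0.48, 0.67 and 0.48. The rise was 0.54 (SE 0.155, adjusted p = 0.0207). Slc3a2 stood at 0.29 with myclobutanil and 0.38 with triadimefon, called with the block (adjusted p = 0.0115 and 0.00117) and not without it (0.545 and 0.264).

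Slc7a11 read 1.35, 0.89 and 0.58 in DMSO and 1.68, 1.46 and 1.32 in propiconazole, so that the lowest treated array lay just below the Rs256 control. Its difference of 0.54 was called with the block (adjusted p = 0.107 without and 0.000206 with it), as was 0.41 with myclobutanil (0.01 with it). Vldlr, a lipoprotein receptor that ATF4 also raises, had a still wider control range, 1.70, 1.08 and 0.75, and read 1.76, 1.84 and 1.69 in propiconazole. Its 0.59 was called with the block alone (adjusted p = 0.159 without and 0.00131 with it). Of its 4 probe sets, 3 gave 0.59, 0.48 and 0.36, and the dimmest gave -0.06.

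The enzymes of serine, one-carbon and asparagine synthesis differed from DMSO by less. With propiconazole at 100 uM the differences were 0.28 for Psat1, 0.22 for Mthfd2, 0.20 for Shmt2 and 0.16 for the asparagine synthetase Asns, each called with the block and not without it. Asns, often used as a readout of ATF4, read 2.34, 2.24 and 2.05 in DMSO and 2.44, 2.34 and 2.31 in propiconazole, 2 overlapping ranges. Phgdh, which opens serine synthesis, stood at 0.01 and was called in neither fit. Stc2, a secreted glycoprotein, stood at 0.23 and was called with the block (adjusted p = 0.00157).

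**Figure D3:**
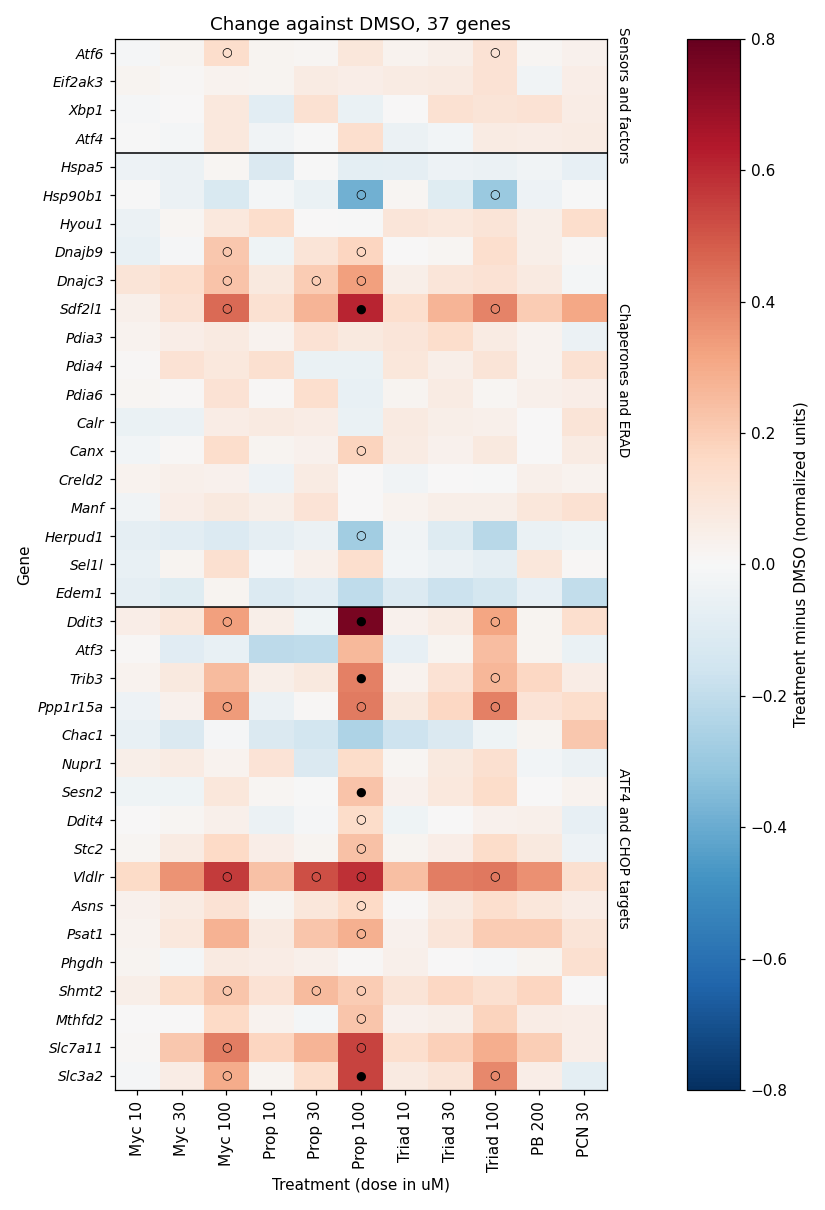
Difference from DMSO (normalized units, colour) of the 37 members in the 11 treatments, ordered by class. Filled circles mark calls in the unblocked fit and open circles calls only with the block. The largest value is that of Ddit3, at 0.76 with propiconazole at 100 uM. Vldlr at 30 uM of propiconazole, at 0.51, is above every member with triadimefon at 100 uM, where the highest is 0.42.

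Promoter windows of 5 members are shown because they hold matches to elements known from the ATF6 and ATF4 branches. The windows come from the RefSeq promoters of build GRCr8 and end at or before the annotated start of the gene. They are printed along the gene, 5 prime to 3 prime, with matches in capitals. The motifs searched on both strands of the 250 bases before the start were ERSE, which is CCAAT, any 9 bases and CCACG, and ERSE-II, which is ATTGG, any 1 base and CCACG, both bound by ATF6 and its partners. The third was CARE, which is TGATG, any 1 base and AA, bound by ATF4 with a C/EBP partner. The motifs do not overlap in these windows. Hspa5 lies at chr3:38452906-38453015 on the plus strand, Hsp90b1 at chr7:23012334-23012483 on the minus strand, Dnajc3 at chr15:102432507-102432586 on the plus strand, Herpud1 at chr19:10614808-10614907 on the minus strand and Trib3 at chr3:161275534-161275613 on the minus strand.
Hspa5: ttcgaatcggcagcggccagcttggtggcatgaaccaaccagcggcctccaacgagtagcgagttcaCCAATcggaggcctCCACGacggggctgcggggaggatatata
Hsp90b1: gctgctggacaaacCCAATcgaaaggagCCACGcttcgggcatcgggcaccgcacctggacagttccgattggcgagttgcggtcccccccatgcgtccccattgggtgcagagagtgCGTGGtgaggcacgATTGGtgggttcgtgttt
Dnajc3: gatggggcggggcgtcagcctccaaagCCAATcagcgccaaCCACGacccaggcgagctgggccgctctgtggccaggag
Herpud1: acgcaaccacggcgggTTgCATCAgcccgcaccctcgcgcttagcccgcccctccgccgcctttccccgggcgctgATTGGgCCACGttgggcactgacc
Trib3: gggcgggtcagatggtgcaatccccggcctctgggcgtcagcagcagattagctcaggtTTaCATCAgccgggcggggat
The capitals mark ERSE in Hspa5 and Dnajc3, 2 ERSE matches in Hsp90b1, the second on the opposite strand, a CARE match and then ERSE-II in Herpud1, and a CARE match in Trib3.

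Of 33469 promoters 0.108% held ERSE or ERSE-II, and 9 of the 32 members with a sequence did. These were Calr, Canx, Creld2, Dnajc3, Herpud1, Hsp90b1, Hspa5, Hyou1 and Xbp1, which is 8 of 13 chaperone genes, 1 of 3 sensors and factors and 0 of 16 ATF4 and CHOP targets. CARE was found in 3.4% of all promoters and in 4 members, Chac1, Nupr1 and Trib3 among the 16 ATF4 and CHOP targets and Herpud1 among the 13 chaperone genes. The difference between the classes was not tested. Members with the same element did not share a direction: of those with ERSE, Dnajc3 rose by 0.33 and Hsp90b1 fell by 0.38 with propiconazole at 100 uM in the blocked fit. Hspa5 with ERSE stood at -0.08, and of those with CARE, Trib3 stood at 0.40 and Chac1, called in neither fit, at -0.25. The match is a description of letters in this window. Pdia3, Pdia6, Atf3, Manf, Atf6 and Ern1 had no sequence in the table.

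Hspa5, which encodes the main chaperone BiP and is the usual marker of the unfolded protein response, was called in neither fit with any treatment. It read 3.24, 3.30 and 3.19 in DMSO, 3.20, 3.21 and 3.08 in propiconazole, 3.15, 3.47 and 3.16 in myclobutanil and 3.16, 3.19 and 3.23 in triadimefon at 100 uM. The ranges overlapped. The differences were -0.08 with propiconazole (adjusted p = 0.631, and 0.452 with the block), 0.02 with myclobutanil and -0.05 with triadimefon. On the values as deposited they were -0.09, 0.15 and 0.12, so the value for myclobutanil grew and that for triadimefon turned in sign with the scaling, and none was called. Hyou1 at -0.01, Calr at -0.05, Creld2 at 0.00 and Manf at 0.00 were as close to 0 with propiconazole.

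Hsp90b1 encodes the chaperone GRP94, a partner of BiP. It read 3.13, 3.35 and 3.26 in DMSO, 2.78, 2.94 and 2.87 in propiconazole and 2.71, 3.10 and 3.04 in triadimefon at 100 uM. No treated array of either compound reached the lowest control. The differences of -0.38 and -0.30 were called with the block and not without it (adjusted p = 0.000148 and 0.0646 for propiconazole, 0.00558 and 0.349 for triadimefon). On the values as deposited the differences were -0.37 and -0.15, so that with triadimefon was smaller on that scale. Herpud1, a quality control protein of the reticulum membrane, read 2.54, 2.42 and 2.55 in DMSO and 1.91, 2.40 and 2.37 in propiconazole. Its difference of -0.28, called with the block (adjusted p = 0.0313), came mainly from the Rs256 pair at -0.63, against -0.03 and -0.18 in the other codes.

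Sdf2l1, Dnajc3 and Dnajb9 moved the other way. Sdf2l1 sits in a complex with BiP and its co-chaperones and read 0.56, 0.84 and 0.98 in DMSO. It read 1.33, 1.33 and 1.55 in propiconazole, 1.28, 1.11 and 1.35 in myclobutanil and 1.14, 1.15 and 1.28 in triadimefon at 100 uM, so that all 9 treated arrays lay above all controls. The rise with propiconazole was 0.61 (SE 0.147, adjusted p = 0.00633). The differences of 0.46 and 0.40 with myclobutanil and triadimefon were called with the block (adjusted p = 0.000767 and 0.00175) and not without it (0.158 and 0.197). The co-chaperone Dnajc3, also known as P58IPK and an inhibitor of PERK, read 1.97, 1.86 and 1.79 in DMSO and 2.38, 2.14 and 2.09 in propiconazole. These groups did not overlap, and the difference of 0.33 was called with the block (adjusted p = 0.0583 without and 2.73e-06 with it), as was 0.23 with myclobutanil (0.00143 with it). Dnajb9, another co-chaperone of BiP, stood at 0.17 with propiconazole and 0.22 with myclobutanil, both called with the block (adjusted p = 0.03 and 0.0165).

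The lectin chaperone Canx depended on the probe set. The representative one, with the highest mean of 3, gave 0.18 with propiconazole (adjusted p = 0.093, and 0.0208 with the block). A second gave -0.32, called as lower when each probe set was a feature (adjusted p = 0.0229), and the third gave 0.20 (adjusted p = 0.43), so no direction is given for Canx. The probe sets of Edem1, which takes misfolded glycoproteins to degradation, also differed in sign, at -0.20, 0.18 and -0.14. The disulfide isomerases Pdia3, Pdia4 and Pdia6 and the degradation adaptor Sel1l were called in neither fit in any comparison with DMSO.

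Of the sensors and factors, 0 of 4 were called in the unblocked limma fit with any triazole at 100 uM. Atf4 mRNA read 2.74, 2.63 and 2.68 in DMSO and 2.96, 2.75 and 2.75 in propiconazole. The groups did not overlap, the nearest arrays lying close together, and the difference of 0.13 was not called (adjusted p = 0.214, and 0.0925 with the block). Its slope on dose with propiconazole, described below, was called with the block (adjusted p = 0.129 without and 0.0411 with it). ATF4 is controlled mainly at translation, which arrays do not measure. Xbp1 stood at -0.06 with propiconazole, and its splicing is not measured here. Atf6 stood at 0.14 with myclobutanil and 0.12 with triadimefon, both called with the block (adjusted p = 0.0143 and 0.0374). Its second, dimmer probe set gave 0.11 with myclobutanil and 0.02 with triadimefon. Neither was called when each probe set was a feature, without the block (adjusted p = 0.659 and 0.951). Eif2ak3, which encodes PERK, was called in neither fit.

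Members were also counted by whether their 3 arrays overlapped those of DMSO. With propiconazole at 100 uM 8 of 37 members lay wholly above DMSO, against 14.4% of all genes, and 4 lay wholly below, against 12.3%. The count below was thus under the share of all genes. The 8 were Atf4, Dnajc3, Sdf2l1, Canx, Ddit3, Trib3, Ppp1r15a and Slc3a2, and the 4 were Hsp90b1, Herpud1, Edem1 and Chac1. These counts use the representative probe set, and Canx and Edem1 each had another probe set of the opposite sign, as described above. With myclobutanil 5 lay above, against 6.97%, and 0 below, against 6.08%. With triadimefon 4 lay above, against 11.8%, and 2 below, against 8.4%, so that both counts were near or under the share of all genes.

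In the other 8 treatments, 10 and 30 uM of each triazole, phenobarbital and PCN, the unblocked limma fit called 0 of 37 members, and 0 had an unadjusted p under 0.05, against 0.2% (myclobutanil at 10 uM) to 6% (propiconazole at 30 uM) of all genes. Calls over all genes were also few, at 0.0381% for propiconazole at 30 uM, 0.0286% for triadimefon at 30 uM, 0.00953% for myclobutanil at 30 uM, propiconazole at 10 uM, phenobarbital and PCN, and 0% for myclobutanil and triadimefon at 10 uM. With the block 3 members rose, all with propiconazole at 30 uM, where 1.75% of all genes were called higher. They were Vldlr at 0.51, Shmt2 at 0.25 and Dnajc3 at 0.20, and Ddit3 was not among them, at -0.03. Phenobarbital gave differences from -0.07 for Edem1 to 0.36 for Vldlr, and PCN, with 2 arrays, from -0.20 for Edem1 to 0.31 for Sdf2l1. The smallest adjusted p with the block was 0.907 for phenobarbital and 0.816 for PCN.

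The slope on the log10 of dose over 10, 30 and 100 uM was called for 6 members with propiconazole, where 8.73% of all genes were called. Per 10-fold of dose Ddit3 rose by 0.72 (SE 0.100, adjusted p = 4.31e-05), Slc3a2 by 0.52, Sdf2l1 by 0.49, Atf3 by 0.48, Ppp1r15a by 0.47 and Sesn2 by 0.22. A line describes Ddit3 poorly, since its mean at 30 uM was not above that at 10 uM. The Atf3 slope starts from arrays that lay wholly below DMSO, with means of 0.76 at 10 uM and 0.76 at 30 uM against 0.97. It was 0.24 without the Rs256 arrays (adjusted p = 0.293) and was called in 4 of 10 alternatives. With the block 16 slopes were called, against 24.8% of all genes, 15 upward and that of Hsp90b1 downward at -0.37. The slope of Atf4 was among the upward ones (adjusted p = 0.0411 with the block and 0.129 without it). Myclobutanil had 0 called slopes without the block (0.248% of all genes) and 7 with it (6.63%), and triadimefon 0 (0.0763%) and 2 (2.93%), Slc3a2 at 0.31 and Hsp90b1 at -0.31. The difference between the compounds' slopes was not tested.

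The triazoles were then compared with each other at matched doses, in 9 pairs. Beside the triazole ring they share, propiconazole carries a dioxolane ring, myclobutanil a nitrile and triadimefon a ketone. At 100 uM Ddit3 was higher with propiconazole than with myclobutanil by 0.43 (95% interval 0.22 to 0.63, adjusted p = 0.0398), in a comparison where 0.744% of all genes were called. It was higher than with triadimefon by 0.44 (95% interval 0.24 to 0.65, adjusted p = 0.0393), where 0.505% were called. The 3 propiconazole arrays, at 1.23 to 1.46, lay above all 6 arrays of the other compounds, at 0.77 to 1.07. Adjusted over all genes and all 9 pairs, the p values were 0.191 and 0.151 without the block and 0.0113 and 0.00796 with it. The unblocked differences are therefore called within each pair but not over the 9 pairs. Each was called in 5 of 10 alternatives, and neither was on the values as deposited or without Rs293 or Rs304. Those that change the filter or average probe sets, which leave the Ddit3 values unchanged, are among the 5.

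Ddit3 did not differ detectably between triadimefon and myclobutanil at 100 uM, at -0.02 (95% interval -0.22 to 0.19). It did not at lower doses either: propiconazole differed from myclobutanil by -0.13 (95% interval -0.33 to 0.08) and from triadimefon by -0.10 (95% interval -0.31 to 0.11) at 30 uM. With the block, which called 7.09% and 4.59% of all genes in these pairs, 2 further members differed between propiconazole and myclobutanil at 100 uM, Slc3a2 by 0.25 (adjusted p = 0.0413) and Hsp90b1 by -0.26 (adjusted p = 0.0238), and 1 between propiconazole and triadimefon, Dnajc3 by 0.22 (adjusted p = 0.00369). The remaining members of these pairs differed by at most 0.32 and 0.25. In triadimefon against myclobutanil at 100 uM limma called 0 members in either fit (0% of all genes, and 0.00953% with the block), with intervals that reached from -0.68 to 0.62 over the 37 members, so differences of that size are not excluded for the most variable genes. The 6 pairs at 10 and 30 uM also gave 0 calls in either fit, and 0% of all genes were called in the unblocked one.

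**Figure D4:**
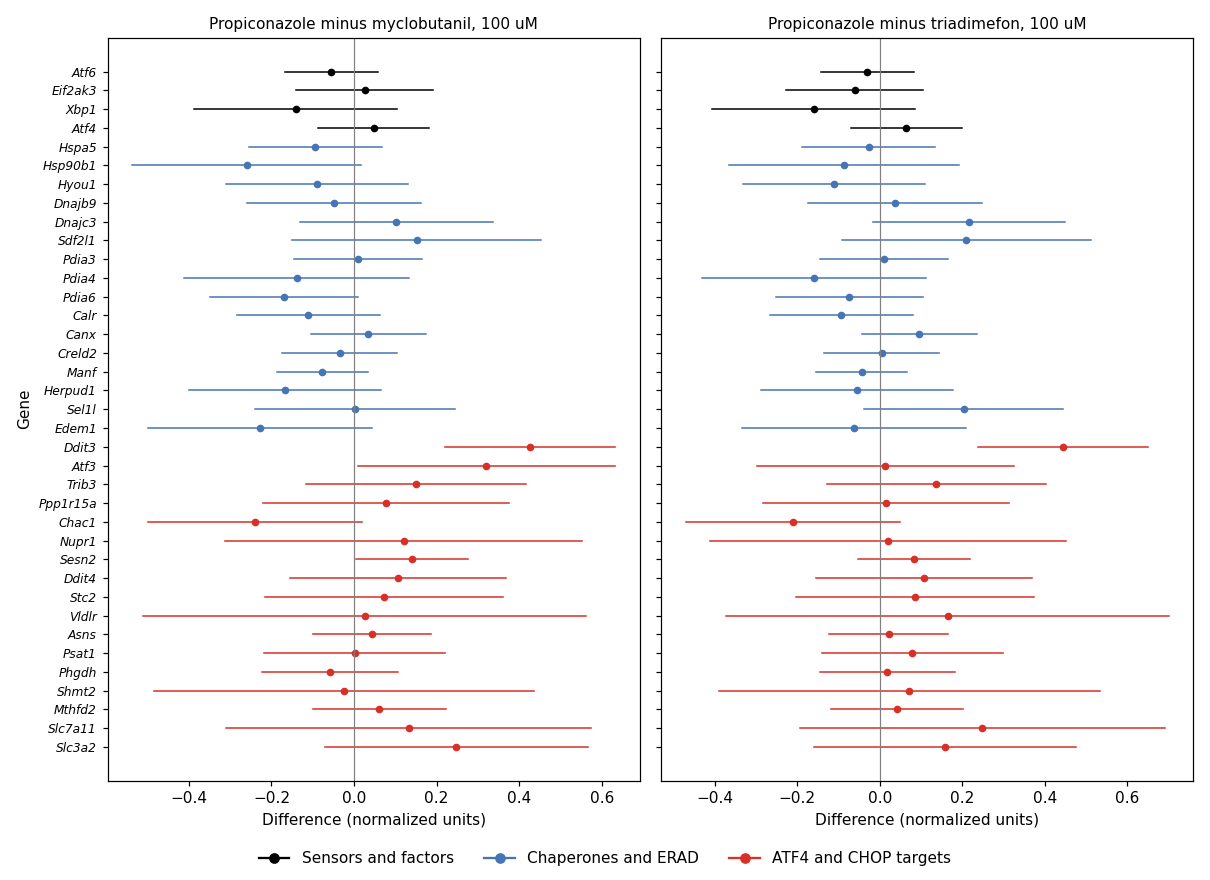
Propiconazole minus myclobutanil (left) and propiconazole minus triadimefon (right) at 100 uM for the 37 members, in normalized units (points) with 95% intervals of the unblocked fit (lines), coloured by class. Ddit3 lies at 0.43 and 0.44, and its intervals lie wholly above 0 in both panels.

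Other genes of the same pathways were listed by function, though with earlier results of these data known. They gave the following counts with propiconazole at 100 uM, to be read against the shares of all genes given with the first. Of 33 further ATF4 and amino acid genes, 7 rose and 2 fell (12 and 5 with the block), against 6.37% and 5.6% of all genes (15.7% and 13.6% with the block). The aminoacyl-tRNA synthetases Wars1 and Sars1 rose by 0.55 and 0.52 (adjusted p = 8.45e-06 and 4.55e-05), and the secreted stress factor Gdf15 rose by 0.66 (adjusted p = 0.00915). The hormone Fgf21, which ATF4 and PPARalpha both raise, fell by 1.04 (adjusted p = 8.09e-05), and the alanine aminotransferase Gpt2 fell by 0.53. Fgf21 also fell with myclobutanil, by 0.68, and with triadimefon, by 0.75. Of 10 genes of eIF2 and its regulators, 2 rose, the exchange factor subunits Eif2b3 (0.32) and Eif2b5 (0.19).

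Of 25 further genes of folding and degradation in the reticulum, 2 rose and 1 fell (5 and 1 with the block), counts near the 6.37% and 5.6% of all genes. The membrane protein Tmbim6 rose by 0.22, the retrotranslocation protein Derl1 rose by 0.15 and the oxidase Ero1b fell by 0.39. Of 23 genes of the translocon and the secretory path, 2 rose and 1 fell (3 and 3 with the block), which is also near those shares. Ssr2 and Ssr1, subunits of the translocon-associated complex, rose by 0.28 and 0.23, and Sec62 fell by 0.19.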

How the data were processed

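The deposited score of each of 31099 probe sets was read from the series' value table for 35 arrays. Per the labels, 5 micrograms of purified RNA per sample went to each array, and the labels do not state how probes were summarised or normalized by the authors. Array medians lay between -0.03 and 0.02 and SDs between 0.646 and 0.941, so quantile normalization was applied. Per the platform annotation 20826 probe sets name 1 gene, 436 several and 9780 none, and 20758 matched a gene ID. A gene was represented by its probe set with the highest mean and tested if above the array median on at least 2 arrays. limma 3.58.1 in R 4.3.3 (lmFit, eBayes, two-sided) fitted 12 group means over all arrays, with 11 contrasts against DMSO, 9 pairs of triazoles and 3 dose slopes, and was tested on simulated data. Errors are SE of the fit or SD between arrays, and precision is limited by how few arrays a group has. Pairing by code: deviations from group means correlated at 0.277 or more in all 32 same-code pairs with DMSO (median 0.704). The median was 0.634 over all 187 same-code pairs and 0.546 over the 9 of a 100 uM triazole with DMSO. Over 374 pairs of different codes the median was -0.355. Deviations sum to 0 within a group, so this negative value follows from the positive ones and adds no separate evidence. Among all 187 same-code pairs 4 fell under 0.1, each with phenobarbital. Members called in either fit and 9 chosen by role were named, and from each other list at most 3 called genes a direction, by smallest adjusted p. Chac1, Nupr1, Phgdh, Hyou1, Calr, Creld2, Manf, Edem1, Pdia3, Pdia4, Pdia6, Sel1l, Eif2ak3 and the marker genes never above the median were named after their values were seen. Members and lists were chosen with earlier results of these data known.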

Additional observations from a re-analysis of the deposited data

Results flagged for a closer look

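Ddit3 at 100 uM differed between compounds by a test of the difference itself. It was higher with propiconazole than with myclobutanil by 0.427 units (SE 0.100, limma adjusted p = 0.0398) and higher than with triadimefon by 0.444 units (SE 0.100, adjusted p = 0.0393), with every propiconazole array above every array of the other compounds. Neither passed when adjusted over the 9 pairs in the unblocked fit (0.191 and 0.151). Leaving out single arrays ended these calls in several cases: the adjusted p against myclobutanil was 0.173 without the propiconazole array of Rs304, 0.113 without that of Rs293 and 0.0994, 0.228 and 0.0532 without the myclobutanil arrays of Rs256, Rs293 and Rs304. Against triadimefon it was 0.213 and 0.153 without the same propiconazole arrays and 0.0869, 0.262 and 0.0722 without the triadimefon arrays.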

How the results depend on the processing

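Over the results of members called in the unblocked or the blocked fit, 540 of 670 alternative values kept direction and side of the threshold. Of the others 70 passed it newly, 60 no longer passed it and 0 reversed. The blocked fit both chose these results and is among the alternatives, so part of the 70 was fixed by that choice. Among members not called, the scaling turned the sign of Hspa5, Creld2 and Phgdh with triadimefon (from -0.05, -0.00 and -0.01 to 0.12, 0.01 and 0.06 on the deposited values) and of Chac1 with myclobutanil, which was within 0.01 of 0 throughout. The 5 members raised by propiconazole at 100 uM became 2 on the values as deposited, 2 after median centring, 2 with only the groups compared, 3 with the mean of all probe sets and 17 with the replicate block (7 with the block on the deposited values). They were 1 to 11 with replicates left out: 11 without Rs256, 1 without Rs293, 1 without Rs304, 8 without DMSO Rs256, 2 without DMSO Rs293, 3 without DMSO Rs304, and 3 without the propiconazole array of Rs256. Its 0 lowered members became 2 with the block, 1 with only the groups compared, 1 with each probe set as a feature and 0 to 2 with replicates left out. Myclobutanil's 0 raised members became 10 with the block, 2 with the block on the deposited values and 0 to 3 with replicates left out (3 without Rs256). Triadimefon's became 7, 2 and 0 to 3 in the same order, and its 0 lowered members became 1 with the block. The other 8 treatments went from 0 calls to 3 with the block. The single call for propiconazole against myclobutanil became 0 on the deposited values, 0 after centring, 0 with only the groups compared, 3 with the block and 0 to 2 with replicates left out. That against triadimefon became 0, 0, 0, 2 and 0 to 1. The 6 propiconazole slopes became 1 on the deposited values, 1 after centring, 1 with only the groups compared, 4 without the filter, 16 with the block and 1 to 9 with replicates left out (9 without Rs256, 2 without Rs293, 1 without Rs304). Myclobutanil slopes went from 0 to 7 and triadimefon slopes from 0 to 2 with the block, and the former to 0 to 1 with replicates left out. The cause was not tested. Of single members, the rise of Ddit3 with propiconazole was called in 10 of 10 alternatives, Sdf2l1 in 8, Slc3a2 in 5, Trib3 in 3 and Sesn2 in 3. Propiconazole at 30 uM held the arrays standing apart most, Rs293 by its SD of 0.941 and Rs256 by its median correlation of 0.949 with the others. Leaving out either, an alternative added after seeing the data, left 5 propiconazole slopes called.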

Other observations

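Chaperones outside the endoplasmic reticulum were measured on the same arrays. With propiconazole at 100 uM the mitochondrial protease Lonp1, an ATF4 target in other settings, rose by 0.82 (SE 0.147, limma adjusted p = 0.000421), and the mitochondrial chaperones Trap1 and Hspd1 fell by 0.20 each (adjusted p = 0.0154 and 0.0277), out of 8 mitochondrial genes tested. Lonp1 stood at 0.46 with myclobutanil and 0.48 with triadimefon, called with the replicate block (adjusted p = 0.000328 and 0.000184) and not without it (0.153 and 0.0998). Of 9 cytosolic heat shock genes Hspb1 rose by 0.52 with propiconazole (adjusted p = 0.0447). Hspb1 stood at 0.11 with myclobutanil and 0.01 with triadimefon. For propiconazole at 100 uM the unblocked fit called 6.37% of all genes higher and 5.6% lower. Whether the counts in these lists of 8 and 9 genes differ from those shares was not tested.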
